A study of Homo sapiens with 12 samples.

Results

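H3K27ac ChIP-seq of the pancreatic ductal adenocarcinoma line CFPAC1 was compared between cells treated with 1000 U/ml of human interferon beta (IFN-beta) for 2 hours and untreated cells. The comparison took the 4 peak lists labelled as bulk CFPAC1, 2 from IFN-beta-treated and 2 from untreated cells, out of 12 libraries in the series. Both groups were grown in the same serum-supplemented IMDM and precipitated with the same Abcam antibody (ab4729), and the labels do not say whether the libraries of a group came from separate cultures, so p-values measure only the spread between the libraries in each fit. The other 8 libraries came from MiaPaCa2, a second pancreatic cancer line, with and without the same treatment, and from CFPAC1 clones, isolated by dilution and given no interferon treatment in the labels, that were infected with the lentiviral CRISPR plasmid carrying Cas9 and a guide against IRF1 (IRF1 knockout clones) or with that plasmid and no guide named (wild-type clones). All 4 CFPAC1 libraries showed peaks at 10 of 10 ductal epithelial markers. Of the fibroblast, leukocyte, endothelial and hepatocyte or acinar markers, 5 of 10, 6 of 10, 5 of 8 and 6 of 10 had no covered base in any of the 4, among them PTPRC, VWF and ALB.

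Acetylation of lysine 27 of histone H3 marks active promoters and enhancers. IFN-beta binds the receptor chains IFNAR1 and IFNAR2 and activates the kinases JAK1 and TYK2, which phosphorylate STAT proteins. With IRF9 these form ISGF3, a factor that binds the interferon-stimulated response element (ISRE) in front of antiviral genes, while STAT dimers bind the gamma-activated site (GAS).

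The IFN-beta libraries held 85908 and 85623 peaks covering 76.88 and 76.62 Mb, and the untreated libraries 97416 and 102802 peaks covering 84.7 and 94.81 Mb. Median peak widths were close, at 525 and 520 bp after IFN-beta and 514 and 540 bp untreated. Read depth is unknown. The Jaccard index of covered bases was 0.678 between the IFN-beta libraries, 0.652 between the untreated libraries and 0.586 to 0.621 between the groups. The untreated libraries thus had more peaks and more covered bases, and each library was centred on its own mean before genes or loci were compared.

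For a gene, the covered length is the number of bases under peaks within 5 kb either side of one end of the gene, on the scale log2(bp + 500). The spread was estimated with limma over all 12 libraries in their 6 groups. Of 15513 genes tested, 105 were higher after IFN-beta (0.677% of those tested) and 48 were lower (0.309%), at a Benjamini-Hochberg adjusted p under 0.05. Both IFN-beta libraries lay above both untreated libraries at all 105, and below them at all 48, but these genes were picked on the same values. Over all genes tested, both IFN-beta libraries lay above both untreated ones at 33.9% and below them at 18.3%, on the centred scale. The median covered length of the 105 genes was 3722 bp after IFN-beta and 1152 bp untreated, and 70 of them already had a peak in both untreated libraries. At 24 of the 105 no base was covered in either untreated library, and the fitted change of such genes depends on the added 500 bp. Of these, 15 had no covered base in any library but the 2 IFN-beta ones. They passed the filter of at least 2 covered libraries only through the group where they were high, so their calls are no support. With the 4 compared libraries alone in the fit 38 genes were higher and 8 lower, 35 of these 46 among the 153 above. Without centring, which set the median change of all genes at -0.10, 67 genes were higher and 75 lower. The calls rest on both libraries of each group. Dropping IFN-beta replicate 1 left 2 genes higher and 1 lower, and dropping IFN-beta replicate 2 left 38 and 32. Dropping untreated replicate 1 left 24 and 5, and dropping untreated replicate 2 left 33 and 7. Of 46 called genes that met the naming rule, CXCL11 and HERC6 were called under every alternative that kept the 4 libraries and in all 4 fits without 1 library.

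The letters of the ISRE were counted in the promoters of the called genes. RefSeq's promoter table (GRCh38.p14; 250 bases before to 50 after each start) gave a sequence for 79 of the 105 genes called higher and 41 of the 48 called lower. The ISRE core, searched as GAAANNGAAA on both strands, was present in 23 of the 79 promoters (29.1%), in 0 of the 41 (0%), and in 502 of all 15812 promoters in the table (3.17%). Of the 20 list members called higher with a sequence, 14 held it (70.0%), and of the 59 called genes outside the lists 9 held it (15.3%). The GAS core, TTCNNNGAA, was present in 13.9% of promoters called higher, 9.76% of those called lower and 6.98% of all, and the AP-1 site, TGANTCA, in 3.8%, 4.88% and 5.76%. A match is a stretch of letters and not a measured binding site. The lists, described further on, were chosen as interferon-inducible genes, so a high share in them is part of how they were made.

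The following stretches of 60 bases, upstream of the annotated start on the gene's strand, show the ISRE core letters in capitals at called genes of different roles, so that the spacing and strand can be compared:
ISG15: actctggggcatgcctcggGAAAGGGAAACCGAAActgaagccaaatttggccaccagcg
IFIT1: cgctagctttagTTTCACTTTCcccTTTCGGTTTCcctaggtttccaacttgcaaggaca
EPSTI1: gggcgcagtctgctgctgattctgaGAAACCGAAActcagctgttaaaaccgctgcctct
PARP14: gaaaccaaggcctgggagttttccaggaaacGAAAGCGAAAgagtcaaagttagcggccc
CXCL10: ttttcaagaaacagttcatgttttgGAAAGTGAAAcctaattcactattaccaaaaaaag
IFNL1: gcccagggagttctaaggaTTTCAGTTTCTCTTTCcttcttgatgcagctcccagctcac
TAP2: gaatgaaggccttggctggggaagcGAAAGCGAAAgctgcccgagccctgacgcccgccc
SOCS1: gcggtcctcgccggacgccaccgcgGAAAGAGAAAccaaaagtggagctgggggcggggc

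These stretches lie at chr1:1013365-1013424 (+) for ISG15, chr10:89392495-89392554 (+) for IFIT1, chr13:42992257-42992316 (-) for EPSTI1, chr3:122680779-122680838 (+) for PARP14, chr4:76023684-76023743 (-) for CXCL10, chr19:39296174-39296233 (+) for IFNL1, chr6:32838763-32838822 (-) for TAP2 and chr16:11256283-11256342 (-) for SOCS1. ISG15, IFIT1 and IFNL1 hold 2 matches each, overlapping in ISG15 and IFNL1, and the other 5 hold 1. The match nearest the start begins 29 bases before it in PARP14 and 221 bases before it in CXCL10. Genes that were not called can hold the same letters, as the widely covered pair shown next for that reason:
IFIT3: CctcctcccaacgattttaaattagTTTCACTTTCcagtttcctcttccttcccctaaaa
CD274: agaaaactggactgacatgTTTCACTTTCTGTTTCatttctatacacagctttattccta

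The 2 stretches lie at chr10:89327850-89327909 (+) for IFIT3 and chr9:5450315-5450374 (+) for CD274. Each promoter holds 2 matches upstream of the start, and the single capital that opens the IFIT3 stretch is the last base of its other match. Both genes had at least 5317 covered bp in every CFPAC1 library of the comparison.

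As a measure of noise that needs no model, genes were counted whose 2 libraries of one pair both lay at least 2-fold above both libraries of the other pair. In the treatment comparison 96 genes lay at least 2-fold higher after IFN-beta (0.619% of those tested) and 50 at least 2-fold lower (0.322%), 146 in all. Dividing the same 4 libraries by replicate number gave 15 such genes, and the remaining division gave 2. With 3 divisions the exact two-sided permutation p was 0.333, the smallest possible. Among 161 tested genes of the 7 interferon lists described next (receptors and STATs, interferon regulatory factors, feedback inhibitors, effectors, sensors, the PARP, TRIM, GBP and APOL genes, and class I), 26 lay at least 2-fold higher after IFN-beta and 0 lower, and 0 did so in either direction in the other 2 divisions.

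Of 16 receptor, JAK and STAT genes tested, 1 was called higher and 0 lower, with a median change of 0.07 on the log2 scale against 0.04 over all genes tested. STAT2 had 3932 and 3841 bp after IFN-beta and 2283 and 2102 bp untreated, short of the threshold (limma adjusted p = 0.0525). IRF9, the DNA-binding subunit of ISGF3, had 4099 and 3919 bp against 2668 and 2003 bp untreated (limma adjusted p = 0.354). The receptor chain IFNAR1 had 1999 and 2015 bp after IFN-beta and 1914 and 2148 bp untreated, so its groups overlapped.

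No interferon regulatory factor was called among 9 tested, although all 9 had a positive fitted change and the list median was 0.19. IRF1, which also drives interferon-inducible promoters, was already broadly covered: 9044 and 8628 bp after IFN-beta and 7777 and 6832 bp untreated (limma adjusted p = 0.258). IRF7, which sustains interferon transcription, had 3750 and 3417 bp after IFN-beta and 2249 and 2114 bp untreated (limma adjusted p = 0.563). Among 18 feedback inhibitors 2 were called higher and 0 lower, with a median change of 0.11, and they were SOCS1 and ISG15, which also stands among the effectors. SOCS1, which inhibits JAK kinases, had 6893 and 5292 bp after IFN-beta and 895 and 1642 bp untreated (2.07 ± 0.30 SE, limma adjusted p = 0.0145). SOCS3, a related inhibitor, had 7472 and 5715 bp after IFN-beta and 8265 and 7271 bp untreated, with overlapping groups (limma adjusted p = 0.9), and the sign of its fitted change turned with the window. USP18, the ISG15 protease that restrains the receptor, had 4266 and 3480 bp after IFN-beta and 2745 and 2599 bp untreated (limma adjusted p = 0.187).

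**Figure D1:**
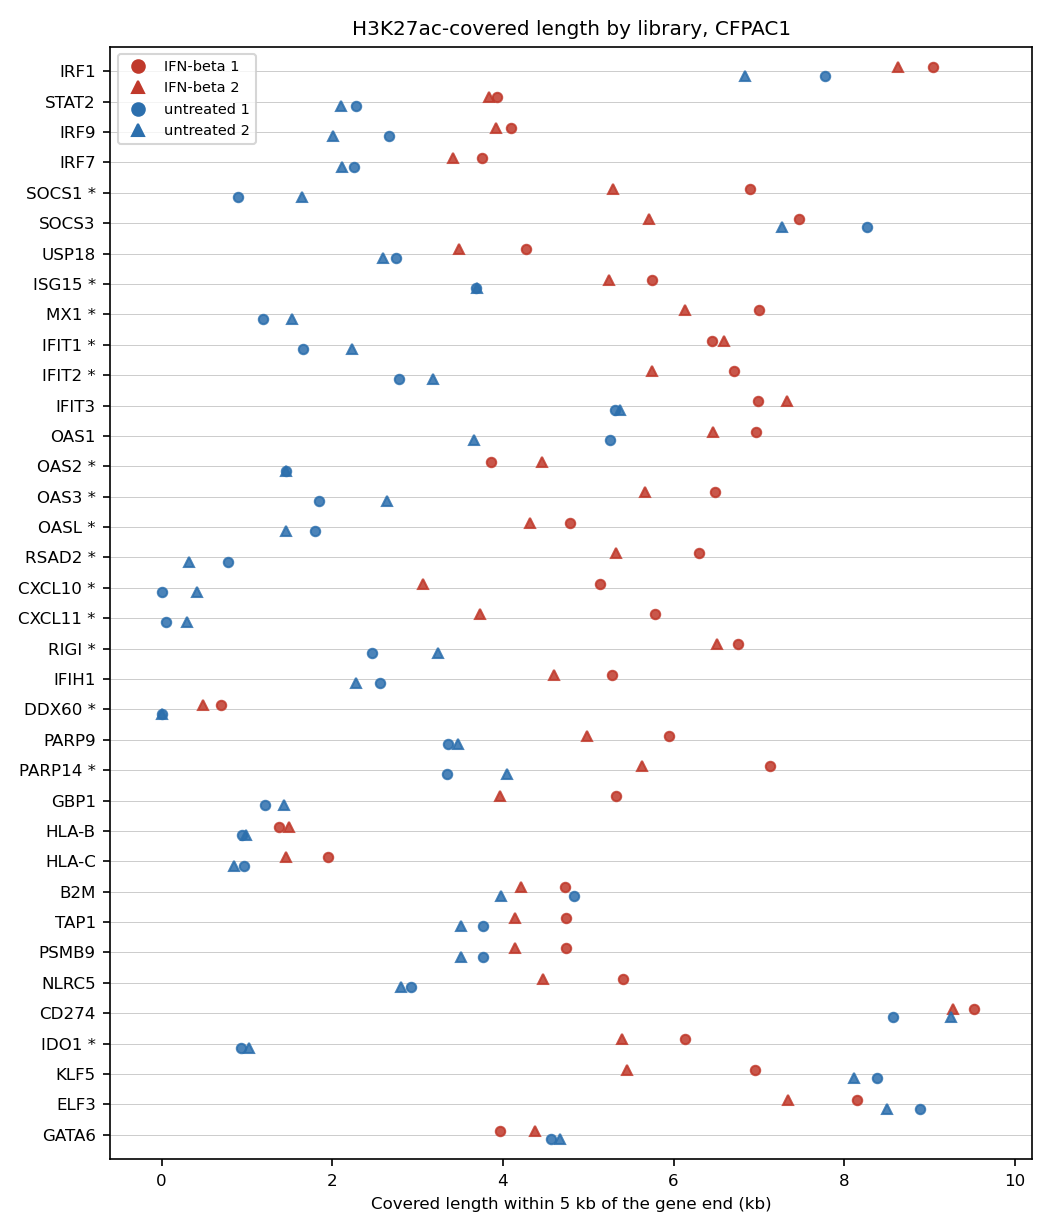
Covered length in kb within 5 kb of the gene end (horizontal axis) for chosen genes in each of the 4 CFPAC1 libraries. Red symbols are IFN-beta libraries, blue symbols untreated ones, circles replicate 1 and triangles replicate 2, and a star marks a limma adjusted p under 0.05. The groups stand far apart at MX1 (6997 and 6134 bp after IFN-beta, 1183 and 1533 bp untreated) and overlap at B2M and SOCS3.

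Of 57 antiviral effectors tested, 16 were called higher and 0 lower, 54 had a positive fitted change and the list median was 0.74, against 0.04 over all genes tested. HERC6, of the HERC family of ubiquitin and ISG15 ligases, had 6116 and 5948 bp after IFN-beta and 1206 and 1240 bp untreated (2.07 ± 0.14 SE, limma adjusted p = 4.06e-04). Its neighbour HERC5, the main ligase for ISG15, had 2750 and 2681 bp after IFN-beta and 0 and 308 bp untreated (2.48 ± 0.26 SE, limma adjusted p = 0.00329). In both genes the 2 IFN-beta libraries were nearly equal and several times above the untreated pair.

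CMPK2, a mitochondrial nucleotide kinase, and RSAD2, which encodes viperin, stand head to head and share most of their windows. RSAD2 had 6301 and 5322 bp after IFN-beta and 780 and 325 bp untreated (2.76 ± 0.33 SE, limma adjusted p = 0.00586), and CMPK2 gave 2.86 ± 0.33 (limma adjusted p = 0.00483). EPSTI1, an interferon-inducible gene first described in epithelium, had 4437 and 3417 bp after IFN-beta and 1030 and 1275 bp untreated (1.56 ± 0.18 SE, limma adjusted p = 0.00483). MX1, a GTPase that traps viral nucleocapsids, had 6997 and 6134 bp after IFN-beta and 1183 and 1533 bp untreated (2.08 ± 0.27 SE, limma adjusted p = 0.00748).

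The IFIT proteins bind viral RNA. IFIT1 had 6447 and 6588 bp after IFN-beta and 1655 and 2227 bp untreated (limma adjusted p = 0.00662), and IFIT2 had 6713 and 5744 bp against 2783 and 3177 bp untreated (limma adjusted p = 0.00483). IFIT3 was widely covered before treatment, with 6987 and 7334 bp after IFN-beta and 5317 and 5373 bp untreated, and did not pass (limma adjusted p = 0.312). The OAS enzymes make the activator of the antiviral RNase L: OAS2, OAS3 and the related OASL rose by 1.39, 1.42 and 1.40 on the log2 scale (limma adjusted p = 0.0427, 0.00934 and 0.0173), while OAS1, with 6965 and 6465 bp after IFN-beta and 5251 and 3656 bp untreated, did not pass (limma adjusted p = 0.46).

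The remaining called effectors were ISG15, DDX60, NMI, APOBEC3A and APOBEC3D. ISG15, a ubiquitin-like modifier, had 5752 and 5245 bp after IFN-beta and 3682 and 3692 bp untreated (0.66 ± 0.12 SE, limma adjusted p = 0.0427). NMI, which binds STAT proteins, had 4629 and 4716 bp after IFN-beta and 3278 and 3322 bp untreated (0.59 ± 0.09 SE, limma adjusted p = 0.0165). APOBEC3A, a cytidine deaminase, had 2040 and 1738 bp after IFN-beta and no covered base in the other 10 libraries of the series. It was tested only because of those 2 libraries, so no p is given. APOBEC3D, a relative of it on the same chromosome arm, had 869 and 797 bp after IFN-beta and 271 and 0 bp untreated (limma adjusted p = 0.0431), a call that held under 3 of 11 alternative settings with all 4 libraries. ISG15 was called under 7 of 12 such settings and lost, among others, with a replicate block, with equal peak numbers and with the 4 libraries alone, NMI was called under 8 of 12, and OAS2 under 6 of 11. None of these 4 was called in any fit without 1 library.

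DDX60, a helicase that assists RIGI, shows how much the choice of window matters. Its window lies 7227 bp from the start that RefSeq's promoter table gives, and held 691 and 481 bp after IFN-beta and 0 bp in both untreated libraries (limma adjusted p = 0.0174). Around the RefSeq start itself it had 4782 and 4382 bp after IFN-beta and 2424 and 2802 bp untreated, a smaller change (0.85 ± 0.15 SE) that was also called (limma adjusted p = 0.0292). The DDX60 call held under 6 of 11 alternative settings with all 4 libraries. It was lost, among others, with a replicate block, with equal peak numbers and with the 4 libraries alone.

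**Figure D2:**
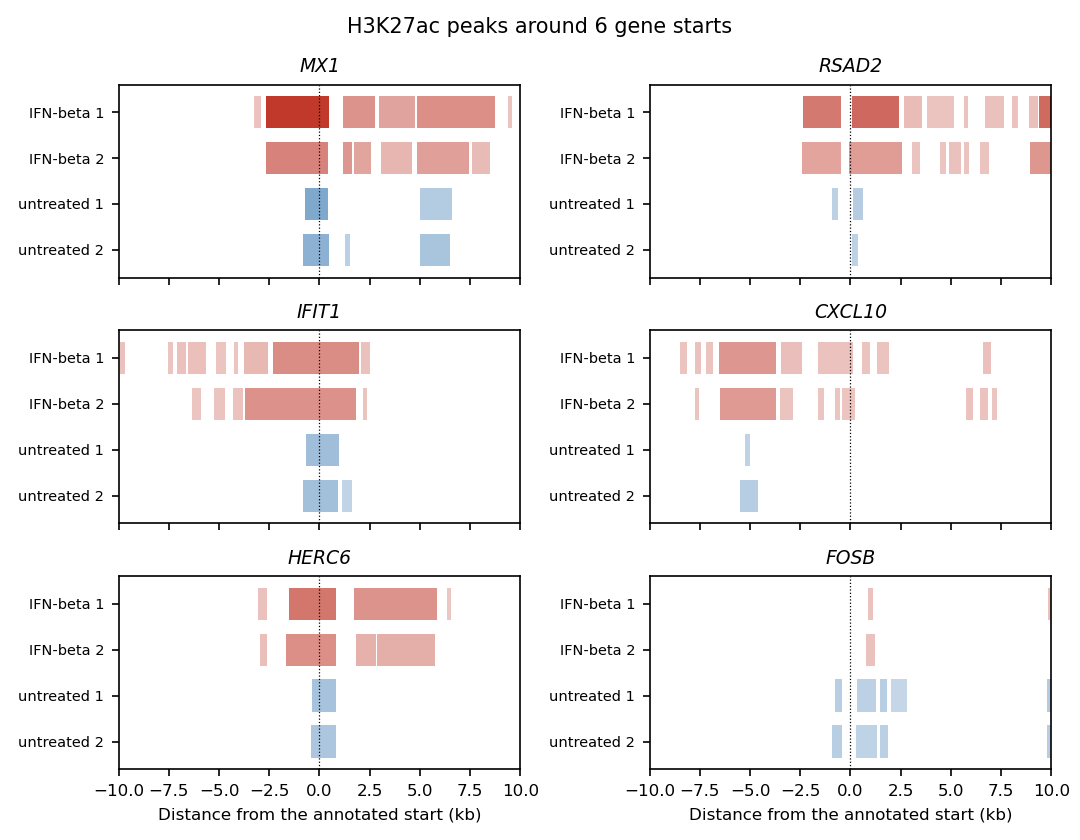
Peaks of the 4 CFPAC1 libraries around the annotated starts of 6 genes, with the distance from the start in kb on the horizontal axis, downstream to the right. Rows are libraries, IFN-beta above untreated, and darker bars have a higher deposited fold. At MX1 a peak of -2666 to 474 bp in IFN-beta replicate 1 stands where untreated replicate 1 has one of -729 to 446 bp, and near its start FOSB has 1 narrow peak in each IFN-beta library.

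Peaks at 2 of these genes show the form of the change. At MX1 the peak over the start ran from -2666 to 474 bp and from -2679 to 441 bp in the IFN-beta libraries, and from -729 to 446 bp and from -799 to 452 bp in the untreated libraries. The downstream edge of this peak lay at nearly the same place in all 4, and its added length was upstream. Other MX1 peaks were added downstream. IFN-beta replicate 1 had peaks of 1148 to 2741 and 2957 to 4734 bp. IFN-beta replicate 2 had peaks of 1149 to 1602, 1710 to 2573 and 3083 to 4614 bp. In that stretch untreated replicate 1 had no peak and untreated replicate 2 had 1, of 1253 to 1519 bp. At RSAD2 the peak upstream of the start ran from -2373 to -477 bp and from -2397 to -477 bp after IFN-beta, while untreated replicate 1 had one of -896 to -620 bp and untreated replicate 2 had none there. The next RSAD2 peak downstream ran from 62 to 2397 bp and from -58 to 2582 bp after IFN-beta. In the untreated libraries it ran from 115 to 617 bp and from 75 to 399 bp.

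Among sensors of viral nucleic acid, 1 of 14 tested was called higher and 0 lower, with a median of 0.46. This was RIGI, which detects viral RNA in the cytosol, with 6757 and 6506 bp after IFN-beta and 2465 and 3239 bp untreated (1.24 ± 0.16 SE, limma adjusted p = 0.00827). IFIH1, its partner for long RNA, had 5280 and 4593 bp after IFN-beta and 2556 and 2273 bp untreated, without overlap but short of the threshold (limma adjusted p = 0.0633). Of 26 PARP, TRIM, GBP and APOL genes tested, 3 were called higher and 0 lower, with 23 positive and a median of 0.69. GBP5, a guanylate-binding protein, had 4744 and 3408 bp after IFN-beta and 646 and 371 bp untreated (2.32 ± 0.35 SE, limma adjusted p = 0.0173). TRIM21, a cytosolic antibody receptor, had 1979 and 1970 bp against 766 and 808 bp untreated (limma adjusted p = 0.0159). PARP14, an ADP-ribosyltransferase, had 7130 and 5629 bp after IFN-beta and 3341 and 4051 bp untreated (limma adjusted p = 0.0423), while PARP9 and GBP1 did not pass (limma adjusted p = 0.102 and 0.105). The PARP14 call held under 5 of 12 alternative settings, that of TRIM21 under 10 of 12 and that of GBP5 under 9 of 11, and none was called in the 4 fits without 1 library.

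Of 25 chemokines and cytokines tested, 3 were called higher and 0 lower. The fitted change was positive at 14 and negative at 11 (median 0.15), while 57.2% of all genes tested had a positive one. CXCL11, a ligand of the T-cell receptor CXCR3, had 5785 and 3729 bp after IFN-beta and 56 and 296 bp untreated (3.10 ± 0.25 SE, limma adjusted p = 6.59e-04). CXCL10, a second CXCR3 ligand, had 5143 and 3058 bp after IFN-beta and 4 and 414 bp untreated (2.87 ± 0.32 SE, limma adjusted p = 0.0048). IFNL1, a type III interferon, had 1034 and 746 bp after IFN-beta and 0 bp in both untreated libraries. Outside these it was covered only in MiaPaCa2 IFN-beta replicate 1, at 253 bp. It passed the filter of at least 2 covered libraries only through the IFN-beta CFPAC1 libraries, so its call is no support and no p is given. CXCL8, a neutrophil chemokine, had 2221 and 3010 bp after IFN-beta and 3152 and 4953 bp untreated (limma adjusted p = 0.608). CXCL8 was picked for naming after its value was seen, as were IFNAR1 earlier and KLF2 and DUSP1 further on.

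For antigen presentation through class I, 2 of 25 tested genes were called higher and 0 lower, with 22 positive and a median of 0.33. TAP2, a peptide transporter subunit, had 5676 and 4702 bp after IFN-beta and 3467 and 2861 bp untreated (0.78 ± 0.12 SE, limma adjusted p = 0.0198). PSMB8, an immunoproteasome subunit whose window overlaps that of TAP2, had 7654 and 6680 bp against 5445 and 4839 bp untreated (limma adjusted p = 0.0291), and was not called around its annotated start (limma adjusted p = 0.0608) nor under 5 of 12 alternative settings, that start included. The heavy chain gene HLA-B had 1378 and 1497 bp after IFN-beta and 946 and 987 bp untreated (limma adjusted p = 0.266), and HLA-C did not pass either (limma adjusted p = 0.143). Their near-identical sequences make the mapping of reads among them uncertain. B2M, the shared light chain, had overlapping groups (limma adjusted p = 0.815). Class II genes gave 0 calls of 12 tested, by limma, and a median of -0.06.

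Among checkpoint ligands and genes of tryptophan breakdown, 1 of 16 was called higher and 0 lower (median 0.12). IDO1, the first enzyme of tryptophan breakdown, had 6130 and 5399 bp after IFN-beta and 933 and 1030 bp untreated (2.22 ± 0.36 SE, limma adjusted p = 0.02). Its call held under 8 of 11 alternative settings and was lost with a replicate block, with 100 bp added and with the 8 CFPAC1 libraries. CD274, which encodes PD-L1, had 9517 and 9278 bp after IFN-beta and 8573 and 9251 bp untreated, close to the window's limit of 10001 bp (limma adjusted p = 0.885).

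**Figure D3:**
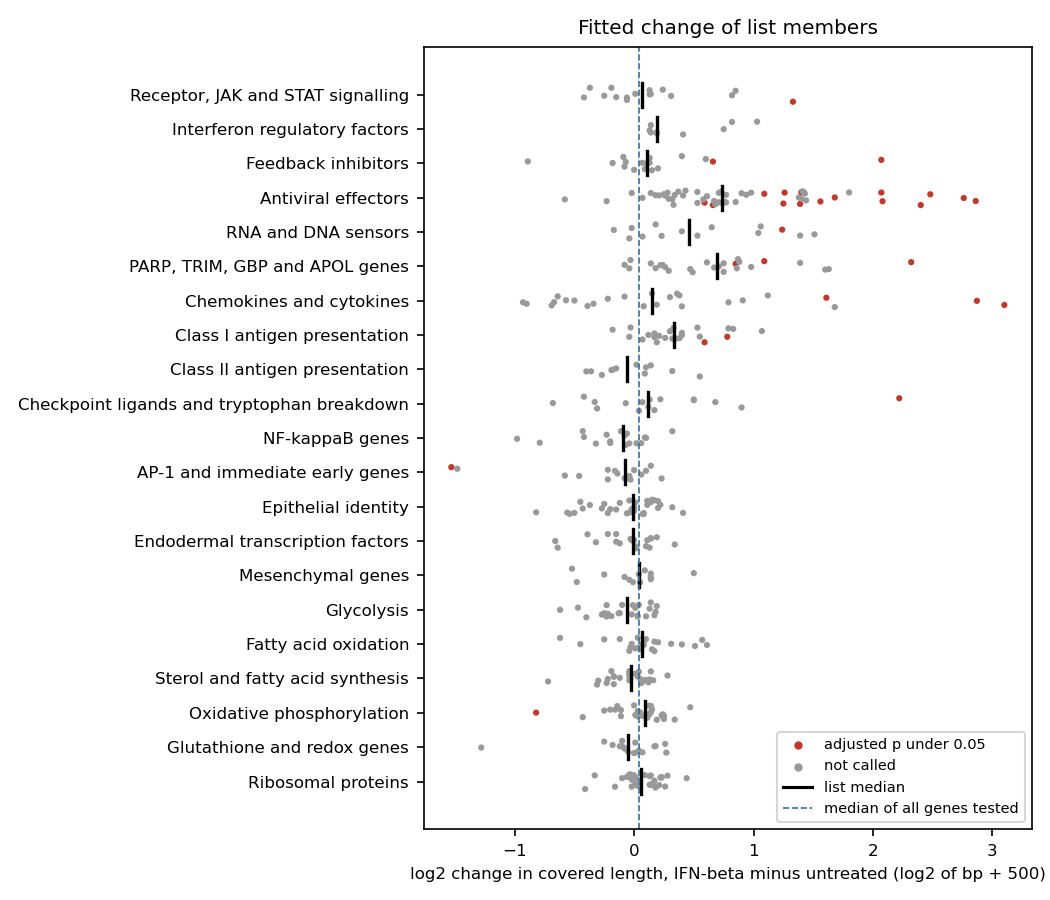
Fitted log2 change in covered length, IFN-beta minus untreated, for every tested member of 21 gene lists (1 row a list, 1 point a gene). Red points passed a limma adjusted p under 0.05, black bars are list medians and the dashed line is the median of all genes tested, 0.04. Antiviral effectors (median 0.74) and the PARP, TRIM, GBP and APOL genes (0.69) lie to the right, and the NF-kappaB (-0.09) and AP-1 (-0.08) lists lie slightly to the left.

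The lists outside the interferon response had medians near that of all genes. NF-kappaB genes gave 0 calls of 18 tested and 13 negative changes. AP-1 and immediate early genes, which respond within minutes to growth factors and stress, gave 0 higher and 1 lower of 17, with 13 negative changes. The called gene was FOSB, an AP-1 subunit, with 251 and 458 bp after IFN-beta and 2418 and 2009 bp untreated (-1.53 ± 0.18 SE, limma adjusted p = 0.00586). The FOSB call was lost when peak numbers were made equal and with the 4 libraries alone. KLF2, an early response transcription factor, had 245 and 1083 bp after IFN-beta and 2348 and 3453 bp untreated (limma adjusted p = 0.0625), whereas DUSP1, a phosphatase of the same kind of response, gave -0.22 (limma adjusted p = 0.585).

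Epithelial identity (35 tested), endodermal transcription factors (20), mesenchymal genes (13), glycolysis (24), fatty acid oxidation (24), sterol and fatty acid synthesis (30), glutathione and redox genes (19) and ribosomal proteins (30) gave 0 calls by limma in either direction, with medians of -0.06 to 0.07. Over all 15513 genes 1746 had an unadjusted p under 0.05. The pancreatic lineage factor GATA6 had 3960 and 4377 bp after IFN-beta and 4568 and 4674 bp untreated. Its fitted change was 0.01, and the sign turned without centring. KLF5, with 6954 and 5457 bp after IFN-beta and 8379 and 8112 bp untreated, gave -0.25 in a window 22562 bp from its annotated start and 0.06 at that start (limma adjusted p = 0.845 and 0.899). In oxidative phosphorylation 0 of 30 were higher and 1 lower: ATP5F1D, a subunit of ATP synthase, had 1650 and 1962 bp after IFN-beta and 3508 and 4558 bp untreated (-0.82 ± 0.12 SE, limma adjusted p = 0.0126). The ATP5F1D call held under 6 of 11 alternative settings with all 4 libraries. It was lost, among others, when peak numbers were made equal, with the 4 libraries alone and with the 8 CFPAC1 libraries.

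Of the 105 genes called higher, 28 belonged to a list and 77 did not, and the largest fitted rise was outside the lists. That gene, LINGO1, encodes a neuronal receptor subunit. Its window lies at the far end of the gene, 207873 bp from the annotated start, with 5982 and 3300 bp after IFN-beta and 0 bp untreated, and around the annotated start no base was covered in the 4 libraries. MORC1, known for its role in the male germ line, had 3432 and 2574 bp after IFN-beta and 0 bp untreated at its annotated start. Neither gene had a covered base in the other 8 libraries, so both were tested only because of the IFN-beta libraries and no p is given. IL1F10, a cytokine related to interleukin-1, was called in a window 7873 bp from its annotated start (limma adjusted p = 0.02) and not at that start (limma adjusted p = 0.599), and MRPL44, a mitochondrial ribosomal protein, was called 6609 bp away (limma adjusted p = 0.00642) and not at the start (limma adjusted p = 0.774). TGM1, a transglutaminase of the epidermal barrier, and SNX20, a sorting nexin of leukocytes, completed the 10 largest rises with CXCL11, CXCL10, CMPK2 and RSAD2. Over all 105, 57 windows lay within 1 kb of the annotated start, 5 within 5 kb, 17 farther away, and 26 genes had no start in the promoter table.

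The 48 genes called lower had a median covered length of 511 bp after IFN-beta and 2065 bp untreated, and 2 of them were in a list. CCDC33, a coiled-coil gene, had 1172 and 1054 bp after IFN-beta and 7451 and 4984 bp untreated (-1.89 ± 0.16 SE, limma adjusted p = 9.07e-04), in a window 33327 bp from its annotated start, and was not called at that start (limma adjusted p = 0.781). TSPAN2, a tetraspanin, had 229 and 223 bp after IFN-beta and 1865 and 1953 bp untreated at its start (-1.59 ± 0.16 SE, limma adjusted p = 0.00308). CLDN11, a tight junction claudin, had 288 and 727 bp after IFN-beta and 3581 and 2504 bp untreated (limma adjusted p = 0.0145). KRT14, a basal keratin, had 0 bp in both IFN-beta libraries and 1216 and 1186 bp untreated (limma adjusted p = 0.0176). With all 4 libraries kept, the CLDN11 call held under 6 of 12 alternative settings and that of KRT14 under 7 of 10. Both calls were lost when peak numbers were made equal and with the 4 libraries alone. Of the other 6 among the 10 largest falls, B3GNT6, OMP and SPOCK3 also had 0 bp in both IFN-beta libraries, ARRB1, THSD4 and RNF182 kept shorter peaks, and B3GNT6 and ARRB1 were each called under fewer than 5 of 11 alternatives.

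The peaks of the 4 libraries merged into 120479 loci, of which all 4 libraries held 44211. Both IFN-beta libraries and neither untreated library had a peak in 3340 loci, called gained (2.77% of all loci), and the reverse held in 7743, called lost (6.43%), 11083 together. Dividing the same libraries by replicate number gave 5328 loci held by one pair only, and the remaining division gave 2711 (exact two-sided permutation p = 0.333, the smallest possible). Gained and lost loci differed in form. Gained loci had a median width of 593 bp, lost loci 478 bp and loci held by all 4 libraries 1511 bp. Between 1000 and 2000 bp 606 loci were gained and 439 lost, of loci at least 2000 bp and under 4000 bp wide, 104 were gained and 13 lost, and of those wider still 6 were gained and 0 lost, while under 500 bp 1271 were gained and 4167 lost. Gained loci thus outnumbered lost ones from 1000 bp up and not below. The IFN-beta libraries also had fewer peaks in all, and the part of that in the narrow losses was not tested. When peak numbers were made equal, 4163 loci were gained and 4647 lost.

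Both classes lay mostly away from promoters. A gene start lay within 1 kb of 3.05% of gained loci, 8.36% of lost loci and 31.5% of loci held by all 4 libraries, and over 50 kb away from 51.8%, 36.3% and 29.1% of them. For the remaining 65185 loci, held by other combinations of the libraries, these shares were 5.17% and 43.4%. Gained loci thus lay farther from starts than those, and lost loci nearer. Gained loci made up 4% of the loci on chromosome 4, the highest share, and 1.02% on chromosome 19, the lowest. Lost loci ranged more narrowly, from 5.21% on chromosome 13 to 7.39% on chromosome 10.

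The strongest and widest gained loci included both known interferon targets and sites far from any gene start. One of 2496 bp upstream of RIGI (chr9:32528331-32530826, 2135 bp from its start) had deposited folds, the authors' own enrichment over background, of 15.4 and 16.4 in the IFN-beta libraries. It was absent from both untreated libraries, and present in both IFN-beta-treated and neither untreated MiaPaCa2 library. A locus inside HERC6 (chr4:88380576-88384706, 1724 bp from its start) had folds of 23.8 and 12.3 and showed the same pattern in MiaPaCa2. One of 5713 bp lay 6497 bp from the start of NOS2, the inducible nitric oxide synthase (chr17:27807026-27812738), with folds of 15.5 and 11.0, and was again held by both treated and neither untreated MiaPaCa2 library.

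Other gained loci had no counterpart outside treated CFPAC1. The locus at MORC1 (chr3:109120405-109123242, folds 21.8 and 17.3), one inside ADPRH, an ADP-ribosylhydrolase gene (chr3:119585784-119589793, folds 21.5 and 14), one 469457 bp from the nearest start, TECRL (chr4:63938154-63940003, folds 15.5 and 15.7), one inside LINGO1 (chr15:77611550-77617331, folds 11.1 and 16.1) and one 38823 bp from RASGRF2 (chr5:80918368-80921540, folds 16.3 and 6.5) had no peak in any of the other 10 libraries. Further gained loci with high folds or widths lay nearest to NARS2, TAF1B, OTOF, SOX13, THSD1, HAS2, ARL15, HOMER1, CARMIL1 and NCOA2.

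The strongest lost loci were narrow, from 314 to 804 bp for 9 of the 10 with the highest folds and 1779 bp for the other, near TNP1. The locus highest by the lower of its 2 folds, inside ZNF846 (chr19:9784971-9785495), had folds of 12.7 and 13.5 in the untreated libraries and no peak after IFN-beta, yet held a peak in all 8 other libraries, including treated MiaPaCa2. Loci at PIK3IP1 (chr22:31290365-31290756) and at the start of RGS9BP (chr19:32675424-32676179) and TCEAL3 (chrX:103607951-103608369) showed the same presence in all 8. Lost loci near MKNK2, EI24, PPP1CB, OLFML2A and LINC02798 completed the 10. Of the widest lost loci, one inside SNX14, a sorting nexin gene (chr6:85579544-85581554), had folds of 9.22 and 7.34 untreated and a peak in all 4 clones. Others of these lay nearest to TGFB2, ALCAM, CDH6, ABCA1, OMP, SEC14L1, PPP2R2A and TBL1XR1.

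Near the listed genes the gained loci gathered at the interferon effectors. A gained locus lay within 50 kb of the start of 42 of 57 antiviral effectors (73.7%), against 12.4% of all 17318 genes with a locus in reach. In the other 2 divisions of the libraries, loci held by the first pair only lay near 10 and 3 of the 57. Neighbouring members share loci: the 57 genes had 487 loci in reach, of which 60 were gained (12.3%) and 21 lost (4.31%), against 2.15% and 6.59% of the 74823 loci within 50 kb of any gene. The genes with the most gained loci were IFIT1 with 9 of 32 loci, IFIT1B with 9 of 36, and CXCL10 and CXCL11 with 8 of 30 each. PARP, TRIM, GBP and APOL genes had a gained locus at 13 of 27, and a locus of the first pair only at 8 and 0 in the other 2 divisions. For sensors these counts were 7 of 15, then 4 and 1. For NF-kappaB genes they were 1 of 18, then 6 and 4, and over all 17318 genes 2154, then 2324 and 1441. Near class I genes 6 of 194 loci were gained (3.09%).

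A lost locus lay within 50 kb of 29 of 35 epithelial identity genes (82.9%), against 6289 of 17318 genes with a locus in reach (36.3%). In the other 2 divisions, loci held by the second pair only lay near 8 and 4 of the 35. Over all 17318 genes these counts also fell, to 2226 and 1459. Epithelial identity genes have many loci around them, and per locus the share was 53 of 544 lost (9.74%) against 6.59% near any gene. Near endodermal transcription factors 14 of 165 loci were lost (8.48%), and near ribosomal protein genes 29 of 398 (7.29%). The gene with the most lost loci in reach was UGCG, which makes glucosylceramide, with 12 of 38.

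**Figure D4:**
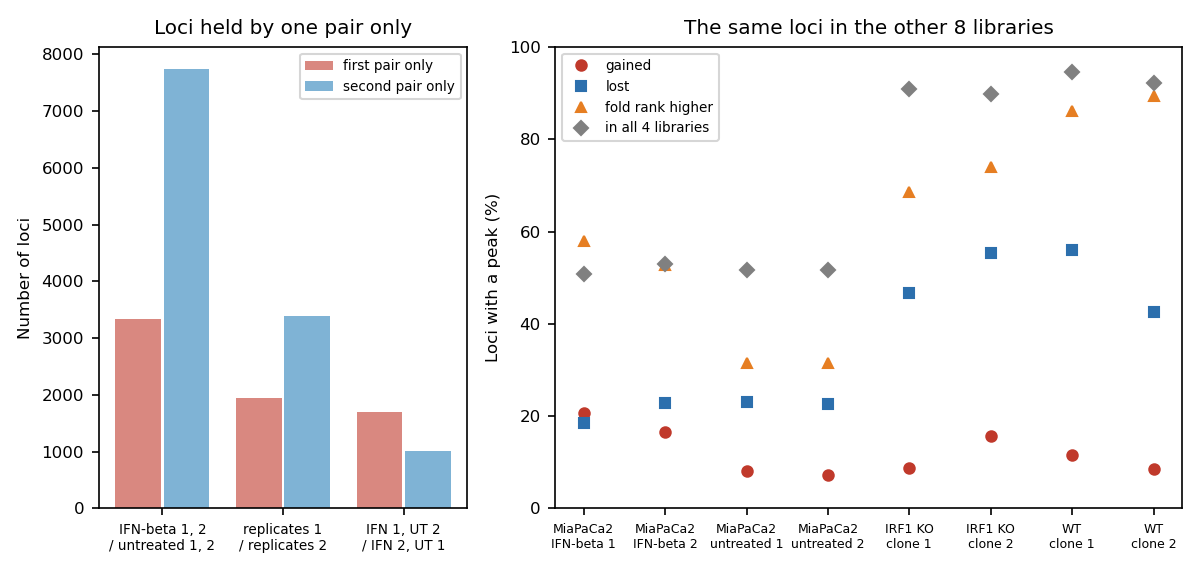
Left, number of loci held only by the first or only by the second pair of libraries in each of the 3 ways to divide the 4 CFPAC1 libraries. Right, percentage of gained loci, lost loci, loci with a higher fold rank and loci held by all 4 CFPAC1 libraries that have a peak in each of the other 8 libraries. Gained loci were found in 20.6% and 16.5% in treated and in 8.05% and 7.22% in untreated MiaPaCa2 libraries.

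The other 8 libraries played no part in calling these loci. The IFN-beta-treated MiaPaCa2 libraries had a peak in 20.6% and 16.5% of the loci gained in CFPAC1, and the untreated MiaPaCa2 libraries in 8.05% and 7.22%. Both treated and neither untreated MiaPaCa2 library held 239 of the 3340 gained loci (7.16%), the reverse held for 5 (0.15%), and over all loci these shares were 0.98% and 0.669%. Of the lost loci, both treated and neither untreated MiaPaCa2 library held 29 (0.375%) and the reverse held for 70 (0.904%), while the single libraries had a peak in 18.4% and 22.8% treated and 23% and 22.7% untreated. The CFPAC1 clones held 42.5% to 56.0% of the lost loci, 8.50% to 15.6% of the gained ones and 50.6% to 57.2% of all loci. With 2 libraries against 2, no order between MiaPaCa2 groups can reach an exact permutation p below 0.333. Of the gained loci 1918 (57.4%) had no peak in any of the 8 libraries, against 1168 lost loci (15.1%) and 21.8% of all loci.

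Where a locus existed before and after treatment, its strength was compared by rank. At each of the 44211 loci held by all 4 libraries the highest deposited fold was ranked within its library, and the ranks were turned into normal scores and tested with limma. This gave 441 loci higher after IFN-beta (0.997% of those tested) and 34 lower (0.0769%) at a Benjamini-Hochberg adjusted p under 0.05. The 441 loci stood at a median percentile of 93.7 and 92.1 in the IFN-beta libraries and of 33.0 and 33.8 in the untreated ones, and the 34 loci at 52.0 and 39.7 after IFN-beta and 92.1 and 94.7 untreated. The numbers depend on the libraries. Dropping IFN-beta replicate 1 gave 229 higher and 117 lower, and dropping IFN-beta replicate 2 gave 338 and 95. Dropping untreated replicate 1 gave 1357 and 485, and dropping untreated replicate 2 gave 1145 and 348.

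**Figure D5:**
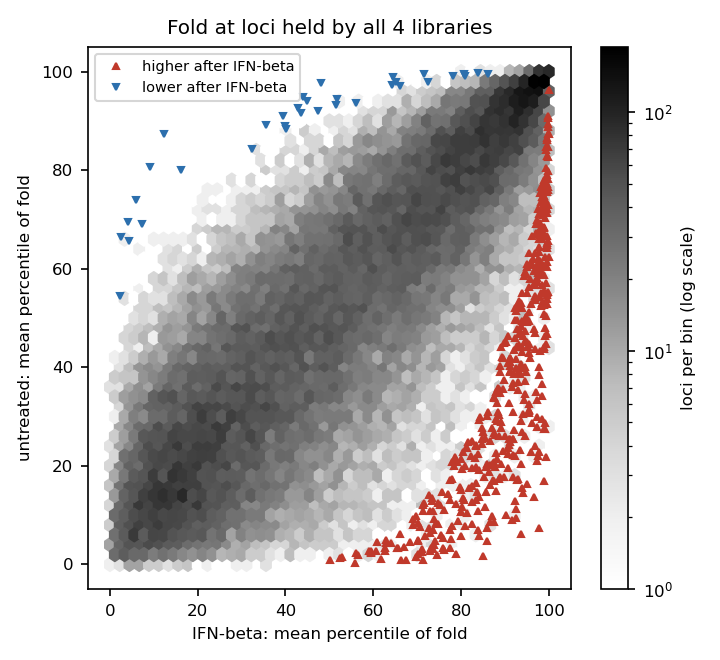
Mean percentile of the deposited fold within a library, after IFN-beta (horizontal) and untreated (vertical), for the 44211 loci held by all 4 CFPAC1 libraries. Grey shading is the number of loci per bin on a log scale, and triangles are loci past a limma adjusted p under 0.05. Loci called higher fill the lower right edge, and far fewer called lower lie at the upper left.

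These 441 loci were wide, with a median of 2749 bp, and 22.9% lay within 1 kb of a gene start, against 31.5% of all loci held by the 4 libraries. The nearest start belonged to a gene of the interferon lists at 52 of them (11.8%), against 384 of all 44211 loci (0.869%). One or more lay within 50 kb of 34 of 57 antiviral effectors (59.6%) and of 12 of 27 PARP, TRIM, GBP and APOL genes (44.4%), against 3.13% of all genes with a locus in reach. Neighbouring genes share loci. Per locus, 29 of 487 near the effectors and 13 of 232 near the PARP, TRIM, GBP and APOL genes ranked higher, against 282 of 74823 near any gene. The count was 0 of 35 at epithelial identity genes and 0 of 18 at NF-kappaB genes, lists too short to set 0 apart from 3.13%. The locus over the start of MX2, a GTPase that restricts retroviruses (chr21:41359927-41364595), stood at percentiles 99.3 and 98.8 after IFN-beta and 20.4 and 13.3 untreated (3.32 ± 0.32 SE in normal-score units, limma adjusted p = 4.75e-04). At the start of PNPT1, a mitochondrial RNA-degrading enzyme (chr2:55693155-55694813), the folds were 52.6 and 42.1 after IFN-beta and 9.80 and 9.05 untreated (limma adjusted p = 6.16e-04). At UBE2L6, which conjugates ISG15 (chr11:57564768-57569917), the folds were 64.6 and 35.6 after IFN-beta and 21.3 and 6.70 untreated (limma adjusted p = 0.00682), so the untreated libraries differed from each other.

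The largest rise in rank was far from genes. A locus 192138 bp from the nearest start, that of RND3, a small GTPase (chr2:150679833-150683381), stood at percentiles 96.7 and 98.6 after IFN-beta and 5.6 and 9.19 untreated (3.48 ± 0.34 SE, limma adjusted p = 4.75e-04), with no peak in MiaPaCa2. A locus of 6583 bp inside FBXL17 (chr5:107999573-108006155) had folds of 40.4 and 26.8 after IFN-beta and 6.56 and 4.89 untreated (limma adjusted p = 4.75e-04), and was found in both treated and neither untreated MiaPaCa2 library. Another inside CUL5, a cullin gene (chr11:108068644-108071915), showed the same MiaPaCa2 pattern (limma adjusted p = 0.00145). The rest of the 10 largest rises lay inside ABI3BP and KCNT2 and nearest to SOX21 and VPS13C.

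Rank and covered length can part at the same gene. OAS2 was called by both, and the strongest locus near it stood at percentiles 98.8 and 99.5 after IFN-beta and 37.4 and 17.6 untreated (limma adjusted p = 6.16e-04). IRF7, OAS1 and IFIH1 did not pass by covered length but passed by rank (limma adjusted p = 0.00327, 0.0101 and 0.00216). The same held for USP18, GBP1 and NLRC5 (limma adjusted p by rank = 0.00757, 0.0101 and 0.0147). At IRF7 the percentiles were 99.7 and 99.3 after IFN-beta and 65.8 and 64.6 untreated. Conversely MX1 passed by covered length but its strongest locus was near the top of the scale in every library, at percentiles of 99.7 or more after IFN-beta and 98.2 and 98.4 untreated (limma adjusted p = 0.377).

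The 34 loci of lower rank included one inside DDX60L, a helicase gene related to DDX60 (chr4:168439741-168442080, 38412 bp from its start), with folds of 4.75 and 3.83 after IFN-beta and 16.4 and 17.0 untreated (-2.36 ± 0.38 SE, limma adjusted p = 0.00632). It had a peak in all 4 clones and none in MiaPaCa2. At MGLL, a lipase of monoglycerides, the locus over the start (chr3:127815349-127823191) had folds of 13.2 and 10.4 after IFN-beta and 34.9 and 27.4 untreated (limma adjusted p = 0.0056). A locus inside TSPAN14, a tetraspanin gene (chr10:80457360-80462279), had folds of 8.93 and 6.48 after IFN-beta and 28.7 and 21.6 untreated (limma adjusted p = 0.00476) at nearly constant width, 4781 and 4720 bp after IFN-beta and 4792 and 4766 bp untreated. Others of the 10 largest falls lay at EPHA2, CAPN9, BCAM, DERA, PLTP and LIMA1.

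In libraries that had no part in the rank test, treated MiaPaCa2 had a peak at 58.0% and 52.8% of the 441 loci and untreated MiaPaCa2 at 31.5% and 31.5%, while at the 44211 loci the shares were 50.7% and 52.9% treated and 51.7% and 51.6% untreated. The untreated IRF1 knockout clones had a peak at 68.5% and 73.9% of the 441 loci and the wild-type clones at 86.2% and 89.3%. At the 44211 loci these shares were 90.8% and 89.9% in the knockout clones and 94.6% and 92.3% in the wild-type clones. The 2 clone groups did not overlap in either set, and with 2 against 2 the smallest exact permutation p is 0.333.

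Covered length tested locus by locus in the 4 libraries alone, over 75687 loci with a peak in at least 2, gave 0 calls by limma (0%; smallest adjusted p = 0.0681), with 15565 loci at an unadjusted p under 0.05, 7340 of them higher and 8225 lower after IFN-beta. With the 8 CFPAC1 libraries in the fit 3304 loci were higher and 943 lower. The single-locus test therefore named no locus at the chosen threshold.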

How the data were processed

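Per the submitters' processing notes, the tools were Trimmomatic 0.38, Bowtie2 2.2.6, SAMtools and MACS2 2.1.0.20150731, with the build GRCh38; control, filters and depth are not given in the sources used here. The authors deposited 1 narrowPeak list per library, with a fold ratio, a -log10 p and a -log10 q for each peak, scaled within the library. These deposited fold ratios and -log10 values served to rank or filter peaks of a list, and 1 alternative fit used the log2 fold centred on the library mean. Folds printed for single loci describe each library on its own scale, so their sizes are not directly comparable between libraries. More than 1 instrument is named without assignment, so batches were not tested.

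The 35 to 55 peaks per library outside chromosomes 1 to 22 and X were dropped. Covered length used the gene end with the larger mean over 12 libraries, since 4162 of 19974 genes have no start in the promoter table. Genes covered in at least 2 libraries entered limma 3.58.1 (R 4.3.3; 6 groups, trended prior), centred on the library mean; the 4-library fits used limma too. Loci were merged with Python 3.11.15 and pandas 2.3.3, with an overlap of at least 1 bp counting as presence. The pipeline was tested on simulated data.

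Members, lists and named items were chosen with earlier results of these data known. Named genes are 39 chosen genes, called list members and the 10 largest rises and falls; named loci are the 10 highest by fold, width or change. A few items that met these rules are not reported here. Alternatives are given in the closing section.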

Additional observations from a re-analysis of the deposited data

Results flagged for a closer look

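The limma interaction term over all genes set apart the changes in the 2 lines at 6 named genes. The change in CFPAC1 minus the change in MiaPaCa2 was 3.38 at LINGO1, 3.02 at CXCL11, 2.86 at MORC1 and 2.32 at APOBEC3A. For CXCL11 the limma adjusted p was 0.0158. LINGO1, MORC1 and APOBEC3A were covered in the 2 IFN-beta CFPAC1 libraries alone and were tested only because of them, so their differences are given as values with no p. It was -1.88 at CCDC33 and -1.67 at TSPAN2 (limma adjusted p = 0.0178 and 0.0487). At LINGO1, CXCL11, MORC1, APOBEC3A and TSPAN2 no base was covered in any MiaPaCa2 library, so the difference there says that MiaPaCa2 had no peak in those windows before or after treatment. At CCDC33 the MiaPaCa2 libraries had 8728 and 9432 bp after IFN-beta and 9911 and 9443 bp untreated.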

How the results depend on the processing

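Counts of genes called higher and lower were 66 and 16 with a replicate block, 134 and 79 with 100 bp added, 67 and 75 without centring (median change -0.10), 69 and 29 around annotated starts, 38 and 8 with the 4 CFPAC1 libraries alone and 59 and 21 with 8. Equal peak numbers gave 123 and 67, and a -log10 q of at least 5 gave 110 and 54, but each kept only 95 of the 153 calls. Leaving out 1 library gave 2 to 38 higher and 1 to 32 lower. With all 4 libraries kept, 11 of 46 called genes that met the naming rule passed every alternative, among them LINGO1, MORC1 and APOBEC3A, which the filter admits only through the IFN-beta libraries. The sign turned at GATA6 (-0.03 with equal peak numbers, -0.02 with 2000 bp added or no filter, -0.13 without centring, -0.01 with quantile normalization, -0.04 without IFN-beta replicate 2), at ELF3 (-0.01 as reported; 0.05 with 100 bp added or a 2 kb window, 0.07 without IFN-beta replicate 2, 0.03 without untreated replicate 1, -0.09 to 0.07 without 1 library), at SOCS3 (0.11 at the annotated start or without IFN-beta replicate 2, 0.02 without untreated replicate 1, -0.27 to 0.11 without 1 library), at KLF5 (0.06 at the annotated start) and at B3GNT6 (0.11 with equal peak numbers). Loci by rank numbered 1033 higher and 332 lower with a replicate block, 261 and 15 at a -log10 q of at least 5, 836 and 150 by deposited -log10 q, and 52 lower by log2 fold; without 1 library 229 to 1357 higher and 95 to 485 lower. Locus lengths gave 3304 higher and 943 lower with 8 CFPAC1 libraries, 975 and 159 over loci with a peak in at least 1 library, and 0 to 448 higher and 0 to 3 lower without 1 library. Gained loci numbered 2209 at a -log10 q of at least 5, lost loci 4647 with equal peak numbers, and 1968 and 3256 with peaks up to 1 kb apart merged. Leaving out 1 library, which lets a single library define a group, gave 4715 to 11879 gained and 12002 to 29021 lost. The cause of these shifts was not tested. Same-numbered libraries deviated together with r = 0.21 across genes and 0.13 across shared loci, which 2 pairs cannot establish as pairing; the labels give no shared batch. Read depth is unknown and limits every statement on absence of a peak.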
